A study of Canis lupus familiaris with 15 samples.

Results

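COL1A1, CXCL12 and EDA are 3 genes of a 160-probe NanoString panel counted in archival skin biopsies of 15 dogs. They were found by matching the RefSeq accession of each row, without its version, to the dog gene table of RefSeq (assembly UU_Cfam_GSD_1.0). Each gene matched 1 row: NM_001003090.1 for COL1A1, NM_001128097.1 for CXCL12 and NM_001014770.2 for EDA. Of the 160 rows, 72 received a symbol this way. NanoString probes are colour-coded and counted one by one, so a value is a number of bound RNA molecules and not a brightness. The dogs were 7 with discoid lupus erythematosus (DLE), 5 whose samples are titled healthy leg margin (called healthy dogs below), and 3 single dogs. Of these, 1 had chronic cutaneous lupus erythematosus, with systemic disease suspected (CCLE), 1 was labelled MLE, and 1 had pyoderma, a bacterial skin infection. The labels give no treatment or genotype for any group. The DLE dogs were of differing breeds or crosses and 1 to 13 years old. The CCLE dog was 7, the MLE dog 6 and the pyoderma dog 9 years old, and no age is given for the healthy dogs. The pyoderma sample was first deposited as DICLE and later relabelled. The healthy samples come from an earlier series, and the site of the lesions is not given, so body site and disease cannot be told apart.

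COL1A1 encodes the pro-alpha1 chain of type I collagen, the main fibre of the dermis, which fibroblasts secrete. CXCL12 is a chemokine that fibroblasts and vessel-lining cells of the dermis release under steady conditions. Its receptor CXCR4 sits on lymphocytes, stem cells and other migrating cells. EDA, a gene of the X chromosome, encodes ectodysplasin A, a membrane-bound ligand of the tumour necrosis factor family that is shed and signals through EDAR to NF-kappaB. That signal is needed to form hair follicles, teeth and skin glands, and dogs and people without it have sparse hair and missing glands. Both COL1A1 and EDA carry collagen repeats in their proteins, whereas CXCL12 is a small secreted peptide.

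Counts summed over the panel ran from 209889 to 675018 in the healthy dogs and from 495839 to 587169 in the DLE dogs, and lay at 501396, 654993 and 430515 in the CCLE, MLE and pyoderma dogs. The 14 ERCC control rows fell into different patterns. One pattern (set A) was found in the DLE, MLE and pyoderma dogs, 9 in all, and the other (set B) in the healthy and CCLE dogs, 6 in all. All DLE dogs were thus in one set and all healthy dogs in the other. The control rows took 8.04% to 33.3% of the counts in healthy dogs against 7.87% to 15.4% in DLE dogs, so that 4 of the 5 healthy dogs had less panel signal per control count than any DLE dog. As a check of the labelled tissue, KRT1, KRT5 and KRT14, keratins of the epidermis, stood above the background limit in all 15 dogs. That limit was set in each dog at 2 SD over the mean of 8 low control rows, and lay between 13.6 and 30.0 counts.

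The 3 genes were counted at very different depths. COL1A1 had 14060 to 136137 raw counts per dog and alone took 2.55% to 27.6% of all panel counts. CXCL12 had 837 to 9823 raw counts, at least 43.7 times the background limit of its dog. EDA had 41 to 188 raw counts, 1.57 to 8.23 times the limit, so it was detected in every dog but near the low end of the assay. Counting error alone (exact Poisson 95% interval) spans 29.4 to 55.6 for the 41 EDA counts of DLE dog 3 and 781 to 896 for the 837 CXCL12 counts of the same dog. Probes differ in how well they bind, so levels are compared between dogs and not between genes. Values called normalised counts below are raw counts divided by the TMM-scaled panel size of the dog.

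Under TMM scaling CXCL12 and EDA were lower in every DLE dog than in every healthy dog, and COL1A1 was lower on average with overlapping groups. CXCL12 was 3.97-fold, EDA 2.58-fold and COL1A1 2.25-fold lower in the fit across the whole panel (edgeR quasi-likelihood test, adjusted p under the threshold of 0.05 for all 3). Among the 154 rows tested, 24.0% were called lower and 37.7% higher in DLE skin, so a call in itself is common on this panel. For 11.7% of the rows all DLE dogs lay below all healthy dogs, as they did for CXCL12 and EDA. In bulk tissue, fewer cells of a type and less RNA per cell cannot be told apart.

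CXCL12 showed the widest gap of the 3 genes. The healthy dogs 1 to 5 stood at 8768, 8166, 5984, 8342 and 9672 normalised counts of CXCL12. The DLE dogs ran from 1248 (dog 5) through a median of 1664 to 3842 (dog 6). The lowest healthy dog was 1.56 times the highest DLE dog, and no values overlapped. The means were 8186 ± 1362 (SD, n = 5) and 2060 ± 946 (SD, n = 7), with a relative spread of 16.6% in healthy and 45.9% in DLE dogs. The groups overlapped with reference gene scaling (highest DLE dog 4969, lowest healthy dog 4657). On the log2 scale CXCL12 changed by -1.99 ± 0.31 (SE, edgeR adjusted p = 0.000155), the 11th lowest of the 154 rows. With any 1 dog left out it stayed between -2.22 and -1.90 and was called each time.

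EDA was also lower in each DLE dog under this scaling, but the groups overlapped with reference gene scaling (highest DLE dog 93.0, lowest healthy dog 85.1) and with control row scaling (69.8 and 67.3). The healthy dogs 1 to 5 had 125, 80, 188, 99 and 113 raw counts of EDA, which are 197, 106, 115, 124 and 154 normalised counts. The DLE dogs had 41 to 72 raw counts, and 37.6 (dog 4), a median of 50.0 and 80.8 (dog 3) normalised counts. DLE dog 3 had the fewest raw counts of EDA and the most after scaling, so its place in the group depends on the scaling. The group means were 139 ± 36.9 (SD, n = 5) and 54.0 ± 16.2 (SD, n = 7), and the lowest healthy dog was 1.31 times the highest DLE dog. On the log2 scale EDA changed by -1.37 ± 0.27 (SE, edgeR adjusted p = 0.000717), the 22nd lowest of the rows tested. In raw counts the nearest dogs of the groups lay within counting error of each other: the 72 counts of DLE dog 6 have an interval of 56.3 to 90.7 and the 80 counts of healthy dog 2 one of 63.4 to 99.6. After the mean of the low control rows was taken off each dog's counts, an alternative added after the values were seen, the change was -1.66 (limma adjusted p = 0.000539).

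COL1A1 varied most between healthy dogs, and its change in DLE skin rested partly on 1 of them. The healthy dogs 1 to 5 stood at 33599, 135202, 50234, 54938 and 79283 normalised counts of COL1A1, a 4.02-fold range. The DLE dogs ran from 20599 (dog 4) through a median of 28214 to 48510 (dog 6). Healthy dog 1 lay inside the DLE range, and the other 4 healthy dogs lay above it. The means were 70651 ± 39617 (SD, n = 5) and 31404 ± 11095 (SD, n = 7). COL1A1 changed by log2 -1.17 ± 0.39 (SE, edgeR adjusted p = 0.0170), the 28th lowest row. Without healthy dog 2, the highest of all dogs, the change was -0.80 and the call ended (edgeR adjusted p = 0.0716). Without healthy dog 1 it was -1.55.

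**Figure D1:**
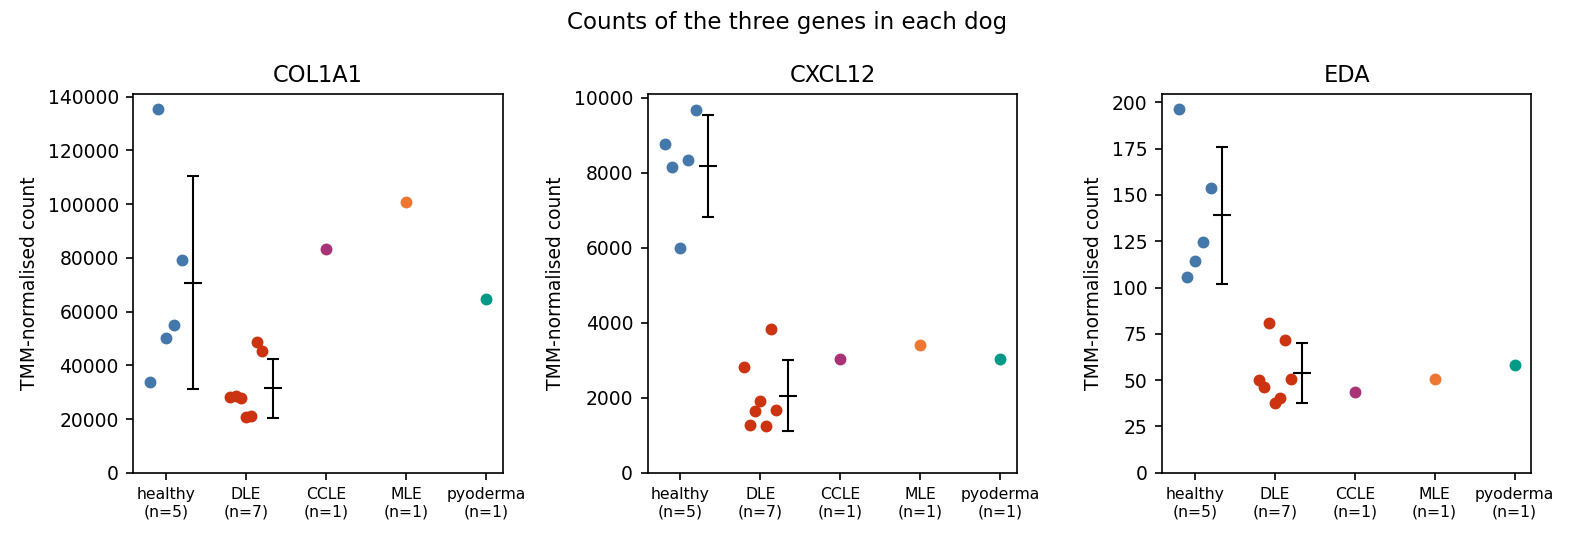
TMM-normalised counts of COL1A1, CXCL12 and EDA in each dog by diagnosis, on linear axes from 0. Each point is 1 dog, and the bar beside the healthy and DLE points is the mean ± 1 SD. CXCL12 and EDA lie lower in all 10 lesional dogs than in the 5 healthy dogs, while COL1A1 is low in DLE dogs and within the healthy range in the CCLE, MLE and pyoderma dogs.

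The dogs with other diagnoses shared the low CXCL12 and EDA of the DLE dogs but not their low COL1A1. CXCL12 stood at 3040 normalised counts in the CCLE dog, 3410 in the MLE dog and 3023 in the pyoderma dog. All 3 values lay below the healthy and inside the DLE range, 2.69-fold, 2.40-fold and 2.71-fold under the healthy mean. EDA stood at 43.5, 50.4 and 58.0 normalised counts in the CCLE, MLE and pyoderma dogs, again below the healthy and inside the DLE range. COL1A1 stood at 83186, 100877 and 64577 in these dogs, above every DLE dog and inside the healthy range. The MLE dog had the most raw counts of COL1A1 of all dogs, 136137. Each diagnosis has 1 dog here, so no test was made between these diagnoses. Under TMM all 10 lesional dogs, the dog with an infection among them, thus lay below all healthy dogs for both genes. How many other panel rows place all 10 lesional dogs below all healthy dogs was not counted. For the DLE dogs alone that share was 11.7% of the 154 rows tested, so the position is not shown to be particular to CXCL12 and EDA. With the reference gene scaling described further on, CXCL12 of these 3 dogs stayed below the healthy range (3145 to 4577 against 4657 in the lowest healthy dog), EDA of the pyoderma dog (87.8) came inside it, and COL1A1 of the MLE dog (131416) came above it.

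**Figure D2:**
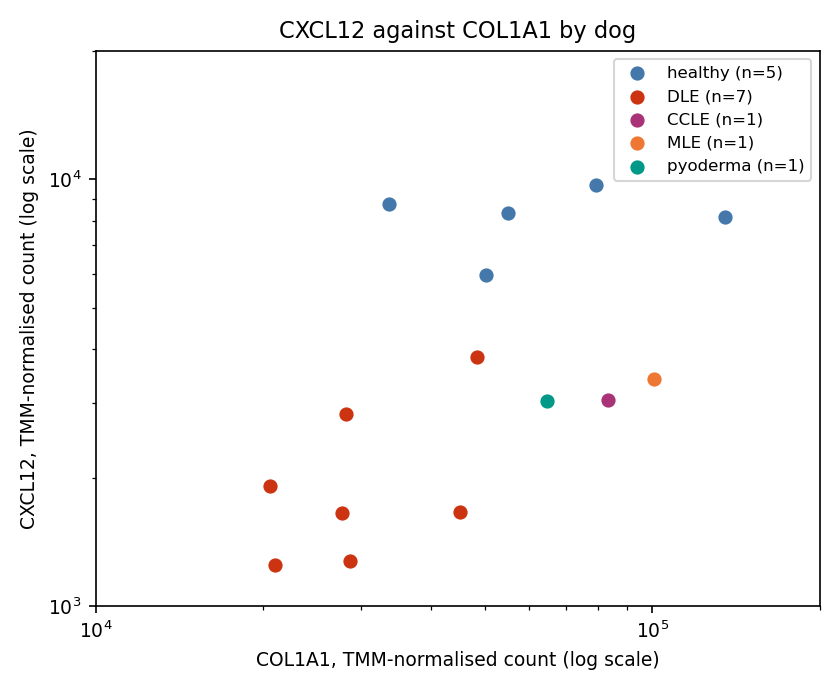
TMM-normalised counts of CXCL12 against COL1A1, 1 point per dog, both axes on a log scale. The healthy dogs lie at 5984 or more CXCL12 counts with COL1A1 from 33599 to 135202, the DLE dogs at 3842 or fewer with COL1A1 up to 48510, and the CCLE, MLE and pyoderma dogs at 3023 to 3410 CXCL12 counts with COL1A1 from 64577 to 100877.

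The ratio of CXCL12 to COL1A1 within a dog does not depend on any scaling between dogs. The healthy dogs 1 to 5 had 261, 60.4, 119, 152 and 122 CXCL12 counts per 1000 COL1A1 counts. The DLE dogs ran from 36.8 (dog 7) through a median of 59.5 to 100 (dog 1). Healthy dog 2, with its high COL1A1, fell inside the DLE range, and the other 4 healthy dogs lay above all 10 lesional dogs. The MLE dog had the lowest ratio of all (33.8), followed by the CCLE dog (36.5), and the pyoderma dog stood at 46.8. The mean log2 ratio was -3.97 in DLE and -2.96 in healthy dogs, a difference of -1.01 (SE 0.40, exact permutation p = 0.0278 two-sided over 792 placements of the labels). Adjusted over the ratios of all 159 other panel rows to COL1A1, that p was 0.0581 and did not pass the threshold, and 3.14% of those ratios were called lower. Without healthy dog 2 the difference was -1.28 (exact permutation, adjusted p = 0.0189). Without DLE dog 1 or DLE dog 4 the adjusted p was 0.0492 and 0.0485 (exact permutation). With any of the other 9 dogs left out the ratio was not called, and without healthy dog 1 the difference was -0.75 (exact permutation, adjusted p = 0.115).

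The EDA ratios ran differently. The healthy dogs 1 to 5 had 5.85, 0.783, 2.28, 2.26 and 1.94 EDA counts per 1000 COL1A1 counts, and the DLE dogs 1.12 to 2.92 with a median of 1.77. The DLE values all lay within the healthy range, and the log2 ratio differed by -0.29 (SE 0.49, exact permutation p = 0.525, adjusted p = 0.638). That difference changed sign without healthy dog 1 (0.075). The MLE dog (0.499) and the CCLE dog (0.523) lay below every other dog, and the pyoderma dog stood at 0.899. Per 1000 CXCL12 counts, EDA stood at 13.0 to 22.4 in healthy dogs and 17.7 to 49.0 in DLE dogs, a ratio given as a description without a test.

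**Figure D3:**
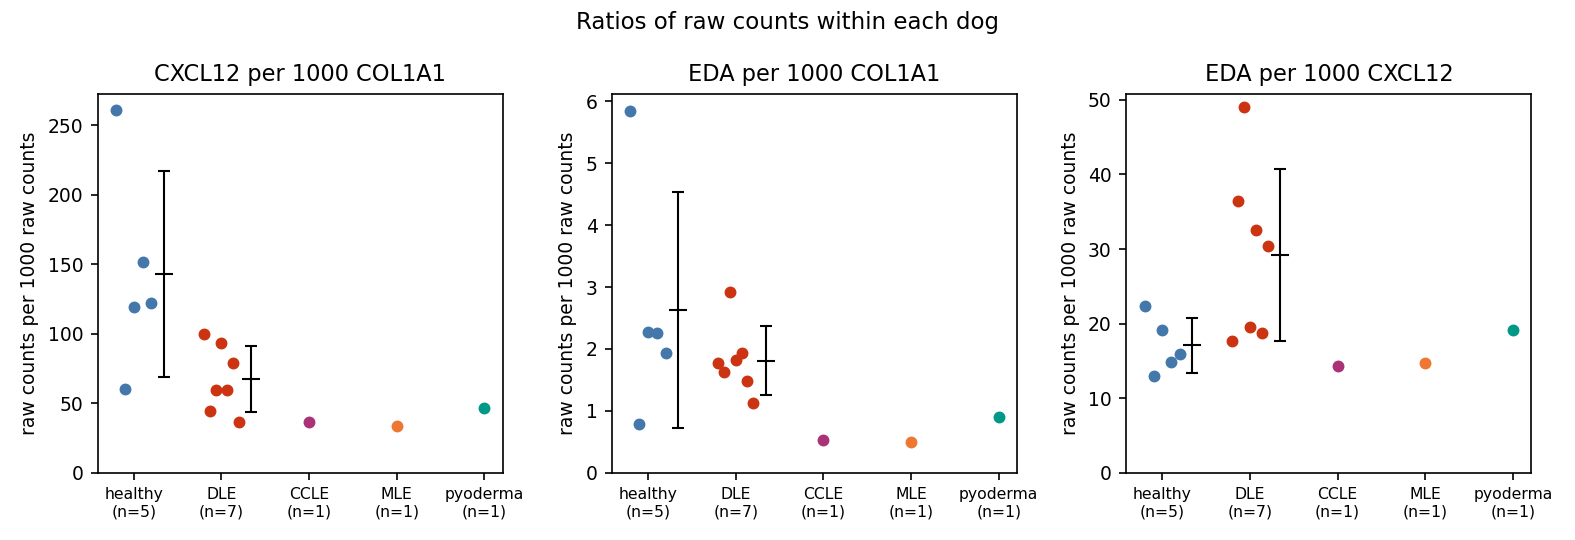
Ratios of raw counts within each dog by diagnosis: CXCL12 per 1000 COL1A1, EDA per 1000 COL1A1 and EDA per 1000 CXCL12, on linear axes from 0. Each point is 1 dog, and the bar beside the healthy and DLE points is the mean ± 1 SD. In the ratio of CXCL12 to COL1A1, 4 of the 5 healthy dogs lie above all lesional dogs, whereas in the ratio of EDA to COL1A1 the DLE dogs lie within the healthy range.

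How far the 3 genes changed depended on the scaling. Under TMM the median log2 change of all rows was 0.42, and under scaling to the reference genes HPRT1, a purine salvage enzyme, and RPL13A, a ribosomal protein, it was 1.09. It was 0.72 with the control rows, 0.18 with DESeq2 size factors, 0.14 with TMM computed without the 3 genes and -0.24 with the panel median. The share of calls that were higher was 61.1% under TMM, 83.0% with reference genes, 77.0% with control rows, 52.9% with DESeq2 size factors, 52.5% with TMM without the 3 genes and 41.1% under the panel median. Set against the median row of the same scaling, CXCL12 changed by -2.46 to -2.28, EDA by -1.80 to -1.73 and COL1A1 by -1.67 to -1.53 over these 6 scalings. A scaling shifts all rows by nearly the same amount, so these narrow ranges follow from the subtraction. They are no sign that the changes are robust.

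Under reference gene scaling, where 11.0% of rows were called lower, CXCL12 changed by log2 -1.26 (edgeR adjusted p = 0.00407) and EDA by -0.65 (edgeR adjusted p = 0.0319). COL1A1 was not called there (-0.53, edgeR adjusted p = 0.306). CXCL12 was called under all 6 scalings, EDA under 5 and COL1A1 under 4. Of all rows, 24.0% were called lower under TMM and 11.0% with control rows. That share was 31.2% both with DESeq2 size factors and with TMM without the 3 genes, and 40.9% under the panel median. The reference genes were themselves not level between the groups under TMM: RPL13A averaged 15334 ± 3412 (SD, n = 7) in DLE and 31090 ± 8566 (SD, n = 5) in healthy dogs, and HPRT1 614 ± 80.4 and 811 ± 134. Set against each of them alone, 6 of the 7 DLE dogs lay below all healthy dogs for CXCL12. DLE dog 6 was the exception, with 7470 CXCL12 counts per 1000 HPRT1 against 7464 in the lowest healthy dog. Per 1000 RPL13A, the MLE (318) and pyoderma (321) dogs lay inside the healthy range of 213 to 374. For COL1A1 per HPRT1, 5 of the 7 DLE dogs lay below all healthy dogs, with a mean log2 difference of -0.68. For COL1A1 per RPL13A no DLE dog lay below all healthy dogs, and the mean log2 difference was -0.070. For EDA the mean log2 difference was -0.98 per HPRT1 and -0.37 per RPL13A. There 6 and 5 of the 7 DLE dogs lay below all healthy dogs. Per 1000 RPL13A, EDA of DLE dog 6 (4.95) and of the pyoderma dog (6.16) lay above the highest healthy dog (4.85). The MLE dog (4.69) lay inside the healthy range, and the CCLE dog (2.50) below it.

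The set of control rows was entered as a block in a comparison of the 9 lupus dogs with the 6 other dogs, called the blocked fit below. There CXCL12 changed by log2 -0.92 ± 0.49 (SE, edgeR adjusted p = 0.193), EDA by -0.88 ± 0.47 (SE, edgeR adjusted p = 0.203) and COL1A1 by -0.24 ± 0.55 (SE, edgeR adjusted p = 0.804). None of the 3 was called, and 3.90% of the rows were called lower. Within set B the CCLE dog stood against the 5 healthy dogs, at log2 -1.41 from their mean log2 level for CXCL12, -1.64 for EDA and 0.40 for COL1A1. Within set A the pyoderma dog lay at 0.67, 0.16 and 1.11 from the mean log2 level of the 7 DLE dogs. The blocked fit also counts the MLE dog of set A as lupus. Its COL1A1 (100877 normalised counts) lay above that of the pyoderma dog (64577). Each of these values comes from 1 dog, and the part of the control row set in the lower counts was not tested.

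**Figure D4:**
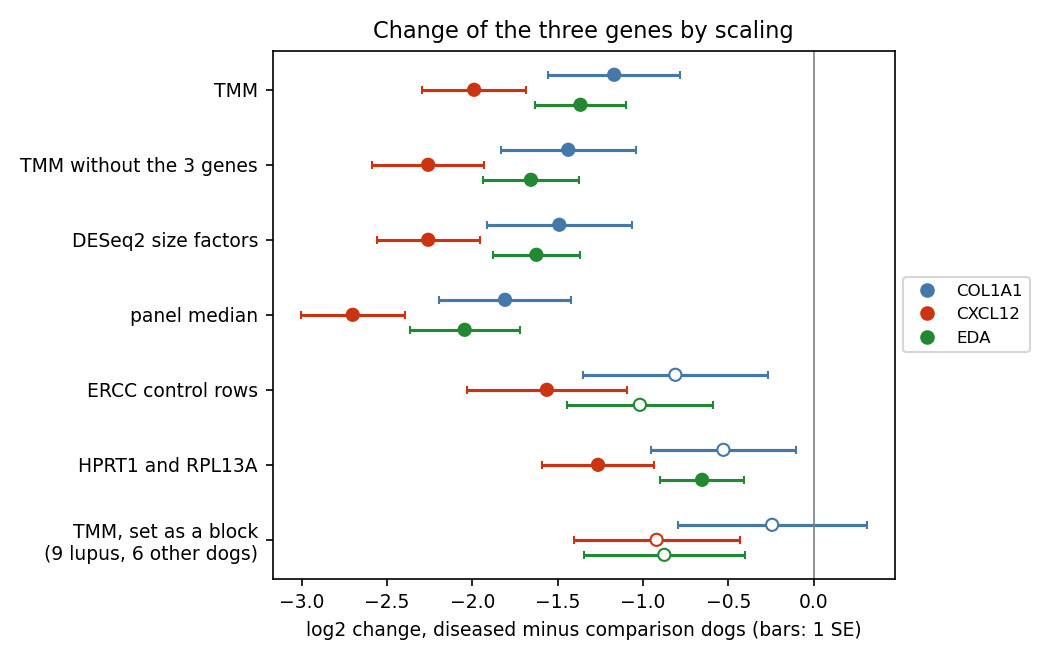
Fitted log2 change of COL1A1, CXCL12 and EDA (points) with 1 SE (bars) for DLE against healthy dogs under 6 scalings, and for lupus against other dogs with the control row set as a block. Filled points passed the edgeR adjusted p threshold of 0.05 and open points did not. CXCL12 is filled under all 6 scalings, and EDA is open with control row scaling. COL1A1 is open with control row and reference gene scaling, and all 3 genes are open with the block.

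Genes beside the 3 were counted from lists of cell types and pathways. Of 32 matrix and fibroblast genes written, COL1A1 alone had a row with a symbol. The same held for CXCL12 among 8 genes of its axis and for EDA among 24 genes of its pathway and of skin appendages. Neither CXCR4 nor EDAR was therefore measured under its symbol, and none of 14 endothelial genes was. Of 14 sebaceous and fat genes 3 were measured, and all 3 fell in DLE skin, where 24.0% of all rows were called lower. These were PPARG, the nuclear receptor that drives fat cell formation (log2 -2.91, edgeR adjusted p = 0.00129), CYP1B1, a cytochrome P450 enzyme (-1.88, adjusted p = 0.000532), and PPARA, a nuclear receptor of fatty acid breakdown (-1.08, adjusted p = 0.0326). PPARA ended its call under reference gene scaling (-0.36, edgeR adjusted p = 0.444) and lay at or under the background limit in 6 dogs. None of the 3 was called with the set as a block.

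Of 7 measured steady-state skin and lymphoid chemokines, 3 fell, 2 rose and 2 were not called, beside 24.0% of all rows called lower and 37.7% called higher. Beside CXCL12, the keratinocyte chemokine CCL27 fell (log2 -2.33, edgeR adjusted p = 2.04e-05), though it lay at or under the background limit in 3 dogs. CCL21, which lymphatic vessels release, fell too (-1.15, edgeR adjusted p = 0.00574), although it was not called under reference gene scaling (-0.54). CCL17 and CCL25 lay at or under the limit in 3 and 11 dogs. CCL19, which shares the receptor CCR7 with CCL21, rose (log2 2.43, edgeR adjusted p = 0.000176), and so did the epithelial chemokine CCL28 (3.36, adjusted p = 0.0102), which lay at or under the background limit in 6 dogs. CCL17 (1.71) and CCL25 (-0.62) were not called, though CCL17 was with reference gene scaling (2.63, edgeR adjusted p = 0.0440) and CCL25 turned in sign there (0.14). In the blocked fit CCL19 alone of the 7 was called (2.06, edgeR adjusted p = 0.00587), and CCL28 stood at 0.56 (edgeR adjusted p = 0.717). The list median under TMM was -0.62, beside 0.42 over all rows.

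Markers of other cells also differed between the groups. Of 21 leukocyte genes 8 were measured, of which 7 rose and CD163, a macrophage scavenger receptor, fell (log2 -1.41, edgeR adjusted p = 0.00226; -0.75 and not called with reference gene scaling). Over all rows 37.7% were called higher and 24.0% lower. Of the genes that rose, MS4A1 and CD40LG lay at or under the background limit in 5 dogs each, FOXP3 in 6 and KLRD1 in 1. In the blocked fit CD86, a co-stimulatory protein of antigen-presenting cells, was no longer called (0.86, edgeR adjusted p = 0.0836), while CD163 was (-1.78, edgeR adjusted p = 0.00993). The summed normalised counts of these 8 genes ranged from 2746 to 9373 in DLE and from 1041 to 3388 in healthy dogs. They stood at 8867 in the CCLE, 5379 in the MLE and 4778 in the pyoderma dog. Single genes weighed heavily in these sums. CD163 averaged 1510 ± 723 (SD, n = 5) in healthy dogs, and CCL5 averaged 3338 ± 1718 (SD, n = 7) in DLE dogs. Of 13 keratinocyte genes 4 were measured, with sums of 87677 to 261687 in DLE and 64260 to 131878 in healthy dogs, and KRT14 alone was called (log2 1.32, edgeR adjusted p = 0.0243; -0.031 and not called with the set as a block). The part of leukocyte and keratinocyte RNA in the lower share of the 3 genes was not tested. Of the 2 measured mast cell genes, KIT and MS4A2, both fell under TMM (-0.70 and -0.68), but not under reference gene scaling (-0.017 and 0.068). In the blocked fit MS4A2 was called lower (-1.55, edgeR adjusted p = 0.0181) and KIT was not (-0.051). Of 4 measured melanocyte genes KIT alone was called.

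Likeness of pattern was measured by Spearman's rho of log2 normalised counts over all 15 dogs, among genes with a symbol, as a description. All dogs share the scaling and the difference between lesional and healthy skin, which raises rho for any pair of genes that differ the same way. For CXCL12 the closest were IFNB1, the interferon beta gene (0.91), PPARG (0.89) and PTGER4, a prostaglandin E2 receptor (0.87). IFNB1 averaged 15.02 ± 5.51 (SD, n = 7) normalised counts in DLE dogs, near the background limit. Within the 7 DLE dogs rho with CXCL12 was 0.57 for IFNB1, 0.32 for PPARG and 0.82 for PTGER4. For EDA the closest were TACR1, the substance P receptor (0.88), CCL27 (0.85) and PPARA (0.84). Within the 7 DLE dogs rho with EDA was 0.68, 0.71 and 0.79 for these genes. CCL27 (27.9 ± 8.83, SD, n = 7) and PPARA (23.5 ± 13.6, SD, n = 7) averaged near the background limit in those dogs. For COL1A1 the closest were the adrenergic receptor ADRB1 (0.69), IFNB1 (0.67) and PPARG (0.64), lower values than for the other genes. ADRB1, too, was near the limit in DLE dogs (17.3 ± 4.75, SD, n = 7), and within those dogs rho with COL1A1 was 0.82, 0.71 and 0.39. Among the 3 themselves rho was 0.79 for CXCL12 with EDA, 0.64 for CXCL12 with COL1A1 and 0.39 for COL1A1 with EDA. PTGER4, for example, averaged 346 ± 85.8 (SD, n = 7) normalised counts in DLE and 694 ± 131 (SD, n = 5) in healthy dogs.

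Within the 7 DLE dogs none of the 3 pairs was related beyond the spread. Pearson's r was 0.57 for COL1A1 with EDA (Spearman's rho 0.61, exact permutation p = 0.147 and 0.167, adjusted p = 0.306 and 0.5). It was 0.52 for COL1A1 with CXCL12 (rho 0.39, exact permutation p = 0.204 and 0.396, adjusted p = 0.306 and 0.556) and 0.43 for CXCL12 with EDA (rho 0.29, exact permutation p = 0.332 and 0.556, both unchanged by adjustment). Without the 2 dogs farthest from the median these r were 0.66, 0.22 and 0.13. DLE dog 6 was highest for both COL1A1 and CXCL12 and had the second place for EDA.

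The age of the DLE dogs was set against the 3 genes and the ratio of CXCL12 to COL1A1. For EDA r was -0.66 (rho -0.64, exact permutation p = 0.104 and 0.139, adjusted over 4 relations p = 0.414 and 0.556), which did not pass the test. Without DLE dogs 3 and 4, the youngest and the oldest, r was 0.023, so the slope rested on those dogs. For COL1A1 r was -0.23 (rho -0.11, exact permutation p = 0.620 and 0.840, adjusted p = 0.826 and 0.840), and 0.12 without the same dogs. For CXCL12 r was 0.053 (rho 0.25, exact permutation p = 0.906 and 0.595, adjusted p = 0.906 and 0.840), and -0.054 without them. For the ratio r was 0.27 (rho 0.21, exact permutation p = 0.564 and 0.662, adjusted p = 0.826 and 0.840), and -0.17 without them.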

How the data were processed

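Counts of 160 panel probes and 14 ERCC control rows in 15 dogs were used as deposited by the authors. They are whole, unscaled numbers by their values, and neither counting software nor background subtraction is stated in the sources read. The labels' protocols name RNA from fixed, paraffin-embedded biopsies and NanoString probe labelling. Each sample was taken as 1 dog, so p-values measure the spread between these samples. Rows were named through RefSeq accessions, and 88 of 160 stayed unnamed.

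TMM factors over the panel rows, filterByExpr and the quasi-likelihood test of edgeR 4.0.16 (R 4.3.3) set 7 DLE dogs against 5 healthy ones, with no covariate. HPRT1 and RPL13A were not tested, and Benjamini-Hochberg adjusted p-values under 0.05 over 154 rows were called. Normalised counts were scaled over all 15 dogs. Log2 ratios used a pseudocount of 1 and an exact permutation test, whose smallest p is 0.00253. Low control rows had under 40 counts in every dog of a set. Both steps were tried on simulated data with 40 changed rows, drawn independently of each other. Here 95 rows were called and all tested ratios share COL1A1, so those runs do not test the scaling or the shared denominator. No pair of columns within a group was a duplicate (lowest chi-square per degree of freedom 162). Intervals cover counting error only. DESeq2 1.42.0, limma 3.58.1 and other scalings were alternatives. The named genes were the 3 members, the 3 genes most like each by rho, and listed genes. Members and lists were chosen with earlier results of these data known.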

Additional observations from a re-analysis of the deposited data

How the results depend on the processing

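CXCL12 was called lower in 11 of 12 alternatives (log2 -2.70 to -0.92 over all 12). The exception was the control row set as a block (-0.92). The 12 include that blocked fit and the same comparison without the block (-1.66 for CXCL12). Those fits set lupus against other dogs, not DLE against healthy dogs. EDA was called in 10 of 12 (-2.05 to -0.65), and not with control row scaling (-1.02, edgeR adjusted p = 0.0558) or the set as a block (-0.88). COL1A1 was called in 8 of 12 (-1.81 to -0.24). Its call ended with reference gene scaling (-0.53), control row scaling (-0.81), the set as a block (-0.24) and lupus against other dogs without the block (-0.63), the last added after the data were seen. The cause of these losses was not tested. Of the panel rows 95 were called, 40 with the set as a block and 74 to 107 in the other alternatives.

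With 1 dog left out the change ranged from -2.22 to -1.90 for CXCL12, from -1.56 to -1.30 for EDA and from -1.55 to -0.80 for COL1A1, and 91 to 98 rows were called. The difference in log2 ratio of CXCL12 to COL1A1 ranged from -1.28 to -0.75 and that of EDA to COL1A1 from -0.65 to 0.075, reversed (0.075) without healthy dog 1. The other alternatives left both ratios uncalled (-1.02 to -0.71 and -0.60 to -0.060).

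The labels do not state that equal replicate numbers pair dogs. Same-numbered dogs correlated at only -0.14 to 0.17 over 5 pairs. Yet 4 of the 5 DLE dogs correlated best with the healthy dog of their own number. These correlations were near 0, and the healthy samples come from an earlier series, so the numbers were not taken to pair dogs. The replicate block is given as an alternative only. With the replicate block the changes were -2.25 for CXCL12, -1.47 for EDA and -1.34 for COL1A1, all called, with 85 rows called. The blocked ratio differences were -0.91 and -0.11, by 32 sign flips whose smallest p is 0.0625. With the set as a block 54 choices allow no ratio p under 0.0185. Depth limits EDA most, at 41 to 188 counts.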
